A study of Homo sapiens with 9 samples.

Results

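The 1397 regions described here are CDK9 binding sites of A375 melanoma cells that had a peak in DMSO, no peak with A771726, and a peak again when nucleotides were given with A771726. They were chosen by the deposited CDK9 peak lists themselves: a peak of the DMSO list entered when it overlapped no peak of the A771726 list and shared at least 1 bp with a peak of the list from cells with A771726 and nucleotides. Of 3462 CDK9 peaks in DMSO, 1397 met the rule, or 40.4% (95% exact binomial interval 38.7 to 42.0). A further 187 had a peak with A771726 and are called kept peaks below, and 1878 had no peak in either of the other lists and are called unmatched peaks. The 6 lists of the series held 27469 peaks in all.

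CDK9 is the kinase of P-TEFb. It phosphorylates the large subunit of RNA polymerase II and the factors that hold the polymerase near the start of genes, which lets elongation proceed, and part of it is held inactive in the 7SK ribonucleoprotein. DDX21 is an RNA helicase of the nucleolus and nucleoplasm that is known for roles in ribosomal RNA synthesis and in polymerase II transcription. Leflunomide acts through its metabolite A771726, a blocker of dihydroorotate dehydrogenase, so that cells run short of pyrimidine nucleotides unless these are supplied.

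Chromatin immunoprecipitation followed by sequencing was done on A375 cells, a human melanoma line, with an antibody to CDK9 or to DDX21. Cells were cultured for 24 h with DMSO, with 25 µM A771726, or with 25 µM A771726 plus nucleotides, whose identity and dose the labels do not give. There was 1 library per antibody and treatment, so no difference between treatments has a replicate error and no p-value is given. Whether the CDK9 and DDX21 libraries of a treatment came from the same plates is not given either. Intervals on shares are exact binomial (Clopper-Pearson) and intervals on medians are from order statistics. Both cover only counting error, with each peak taken as an independent draw.

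Absence with A771726 was the rule among CDK9 peaks and did not set these regions apart. Of all DMSO peaks, 94.6%, or 3275, had no A771726 peak. The A771726 list held 290 peaks against 3462 in DMSO, so few DMSO peaks could overlap one. With the 290 top peaks of each CDK9 list, 196 DMSO peaks had no A771726 peak. A nucleotides peak was present at 45.2% of all DMSO peaks, or 1564. The regions were 42.7% (41.0 to 44.4) of the DMSO peaks that had no A771726 peak. From the side of the list with nucleotides, 1401 of 3099 peaks lay on one of them, or 45.2% (43.4 to 47.0).

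The share of DMSO peaks that belonged to this group was higher at higher ranks of the DMSO list. When DMSO peaks were split into 10 equal parts (deciles) by −log10 q, the false discovery measure of the peak caller, the regions made up 23.9% (19.5 to 28.8) in the bottom decile. In the top one they made up 62.1% (56.8 to 67.3). Among DMSO peaks with no A771726 peak, a nucleotides peak was found at 24.1% (19.7 to 29.0) in the lowest decile, at 52.9% (47.3 to 58.3) in the seventh and at 88.5% (83.8 to 92.2) in the highest. Of all 1397 regions, 600 fell in the top 3 deciles and 263 in the lowest 3. Strong DMSO peaks with no A771726 peak thus mostly overlapped a nucleotides peak, and only 28 of 346 peaks in the highest decile were in neither list. The deciles rank the same DMSO list that the rule used, so this is a description and not a test.

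**Figure D1:**
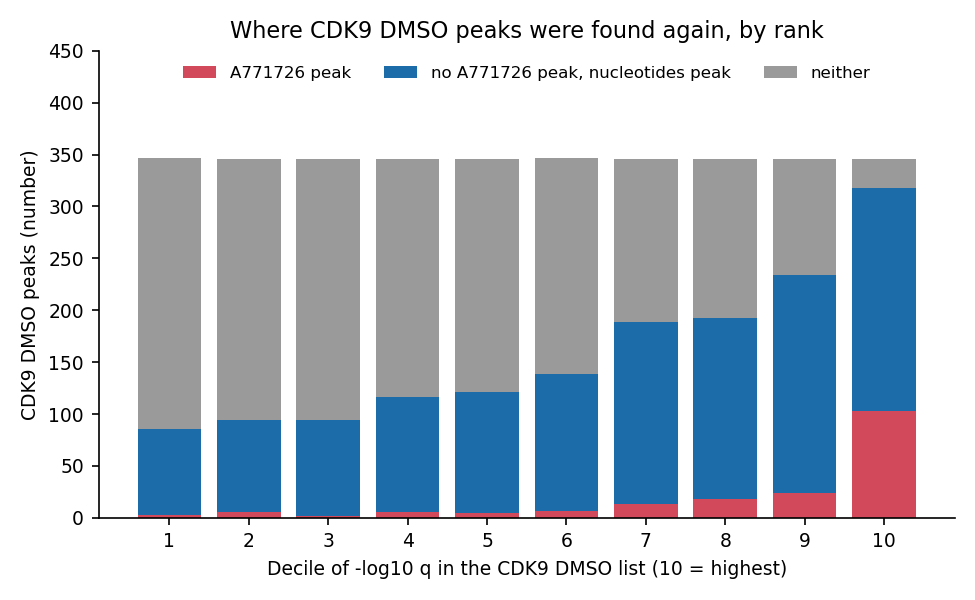
Number of CDK9 DMSO peaks (y axis) in each decile of the DMSO list by −log10 q (x axis, 10 = highest), split by whether the peak overlapped an A771726 peak, only a nucleotides peak, or neither. The blue part, the 1397 regions, grows from 83 peaks in the lowest decile to 215 in the highest.

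In width and strength the regions lay between the other groups of DMSO peaks. Their median width was 230 bp (223 to 237), against 479 bp (423 to 527) for kept peaks and 163 bp (161 to 166) for unmatched peaks. They ran from 128 bp, the shortest peak of the list and the width of 41 of them, to 1632 bp. Peaks wider than 500 bp made up 8.23% of the regions, 47.1% of kept peaks and 0.106% of unmatched peaks. Together the regions covered 393816 bp.

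Fold enrichment, the ratio of the fragments over a peak's summit to the local background as the authors' caller gave it, followed the same order. The median was 4.62 (4.56 to 4.70) at the regions, 5.82 (5.45 to 6.10) at kept peaks and 4.26 (4.24 to 4.29) at unmatched peaks, all in the DMSO list. The regions spanned 1.44 to 15.5, and the highest value of the whole DMSO list was among them. The number of fragments stacked at the summit, here called pileup and worked out from fold enrichment and −log10 p, had a median of 26 (26 to 27) at the regions, 36 (33 to 39) at kept peaks and 20 (20 to 21) at unmatched peaks. The local background had medians of 4.79 fragments at the regions, 5.32 at kept peaks and 3.99 at unmatched peaks, so it moved in the same order as the pileup. These values describe how the groups look in DMSO, and since the peak lists formed the groups they are not a test.

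**Figure D2:**
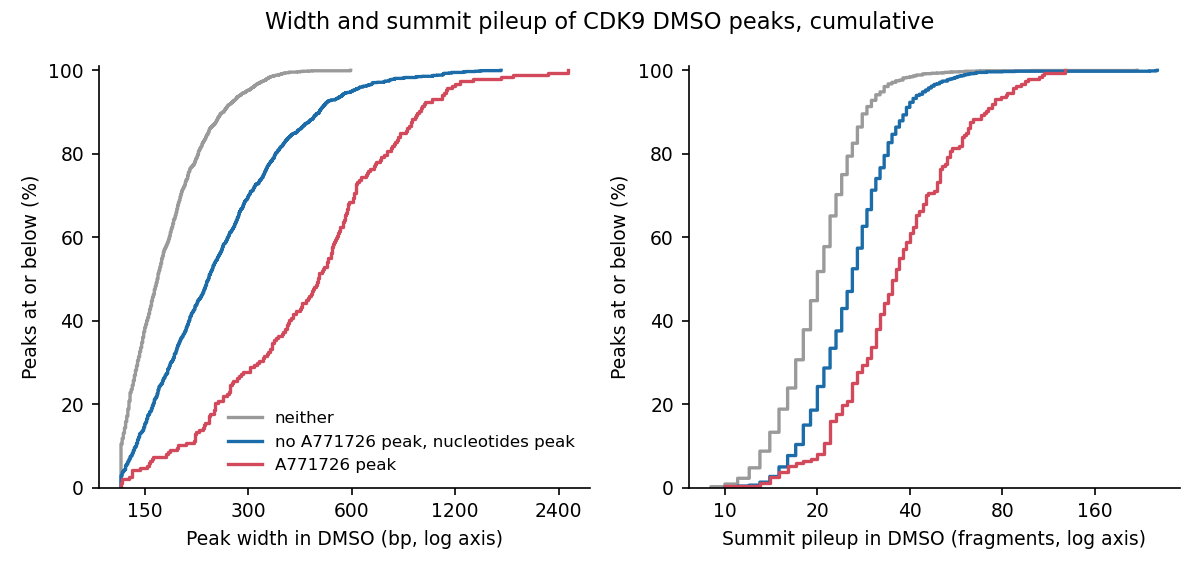
Cumulative share of CDK9 DMSO peaks (y axis, %) at or below a given width (left, bp) or summit pileup (right, fragments), both on log axes, for the 1397 regions, the 187 kept and the 1878 unmatched peaks. The regions' curves lie between the others, with medians of 230 bp and 26 fragments.

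The peak with nucleotides mostly lay at the place of the DMSO peak and had a similar height. A single nucleotides peak matched 1336 of the 1397 regions, and the rest met 2 or more. Where a region met several, the one with the highest pileup was paired with it. Neighbouring regions could also share a nucleotides peak, as in chr13:80910557-80915516, where 9 regions stood on 5 nucleotides peaks. The summits in DMSO and with nucleotides were a median of 48 bp apart (45 to 51), 1059 regions had them within 100 bp and 17 had them more than 500 bp apart. The shorter of the paired peaks lay wholly inside the longer at 587 regions and shared at least 50% of its length at 1263.

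Heights were put on a common scale by dividing each pileup by the lowest background among the listed peaks of its library. The regions had a median height of 22.2 (22.2 to 23.1) in DMSO and 22.5 (21.7 to 22.5) with nucleotides. The log2 ratio of the height with nucleotides to that in DMSO had a median of 0.0059 (-0.017 to 0.028), with 709 regions higher with nucleotides and 688 higher in DMSO. The heights differed by less than 1.5-fold at 1278 regions, or 91.5%. More than 2-fold differences were few, with 12 regions higher with nucleotides and 4 higher in DMSO. Regions that shared a nucleotides peak were each given its height, and the part of such sharing in these differences was not tested. Width differed little as well, with a median of 240 bp (231 to 248) with nucleotides, 725 regions wider there and 665 wider in DMSO.

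Across the 1397 regions the pileups of both libraries rose together, with a Spearman rho of 0.689 and a Pearson r of 0.744 on log2 values. The local backgrounds of the same peaks gave 0.659 and 0.726, so the points share local read density as well as peak signal. Widths were less alike, with 0.416 and 0.474. A region had to pass the caller's threshold in both libraries, which removes pairs with a low value on either side, so the agreement in height is a description of the chosen regions. The 3 regions that stand apart with the greatest heights, 1 of them mitochondrial, had a local background of 50 fragments or more and low fold enrichment.

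**Figure D3:**
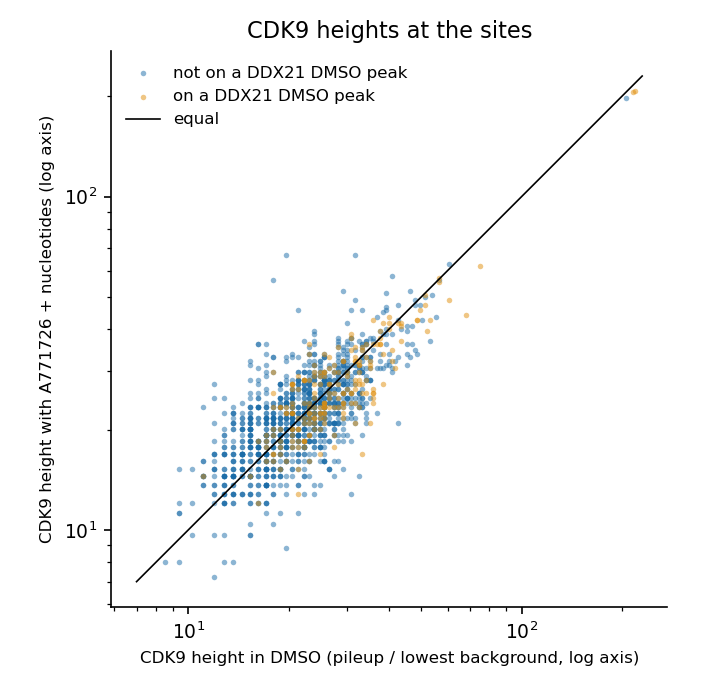
CDK9 height of each of the 1397 regions in DMSO (x axis) and with A771726 plus nucleotides (y axis), both on log axes. Height is summit pileup divided by the lowest background among the library's listed peaks. Colour marks overlap with a DDX21 DMSO peak, and the line marks equal heights. Points lie on both sides of the line, 709 above it and 688 below.

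The A771726 list differed from the DMSO list in more than its number of peaks, 290 against 3462. Its shortest peak was 50 bp against 128 bp in DMSO, and its lowest background was 0.521 fragments against 1.17. Its list held pileups from 8 fragments upward with a median of 15, and its lowest −log10 p was 6.06. When the DMSO pileup and background of each region were multiplied by the quotient of the lowest backgrounds, 0.445, the median pileup became 11.6 fragments, and 561 regions, or 40.2%, reached that lowest −log10 p. The same step gave 74.3% of kept peaks and 14.2% of unmatched peaks, and all 215 regions of the highest decile. This scaling takes pileup and background to move together with fragment length and tag number. It also takes the lowest background among listed peaks as that of the library, which a list of 290 peaks may not reach. In DMSO the lowest background was 1.62 at kept peaks and 1.17 over the whole list. The other 836 regions lay under that limit. The limit itself follows from the caller's q threshold, which becomes stricter in p when few peaks are called, so it rests in part on the low number of A771726 peaks. With the lowest −log10 p of the DMSO list, 4.68, as the limit, 934 regions, or 66.9%, reached it and 463 did not, and 89.3% of kept and 38.5% of unmatched peaks reached it. What part the shorter minimum peak and lower background had in the missing peaks was not tested. Kept peaks had a log2 ratio of height with A771726 to height in DMSO of -0.08 (-0.14 to 0.04) on that scale, although they were chosen for having a peak.

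The rule turns on overlap, so regions at its limit are close to those left out. The regions with the least overlap shared 1 bp (chr5:27328767-27328898 of hg19, fold enrichment 5.36), 2 bp (chr6:133421606-133421773, 6.15) and 4 bp (chr15:59576399-59576540, 3.58) with a nucleotides peak. Just outside lay chr12:12876906-12877120, which abutted such a peak (4.27), chr4:27156384-27156527, 1 bp away (3.25), and chr5:56751115-56751280, 3 bp away (4.85). Only 10 regions shared 10 bp or less, while 54 unmatched peaks lay within 100 bp of a nucleotides peak. On the side of A771726, the region chr11:65264806-65265198 lay 3 bp from an A771726 peak and the kept peak chr11:65267930-65268591 shared 16 bp with one. Most regions were far from any A771726 peak, with 72 of 1397 within 1 kb and 172 within 10 kb.

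All positions are those of hg19, and no gene annotation of that build was used here, so regions are given by position and not by gene. The 20 regions highest by −log10 q in DMSO included 6 on chromosome 1, of which 5 lay in a single stretch, chr1:149804084-149833122. In that stretch, 8 of 11 CDK9 DMSO peaks were regions of the group, 1 was kept and 2 were unmatched, with 1 A771726 peak and 7 nucleotides peaks. The regions there were wide, with a median of 1142 bp.

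The strongest of all, chr1:149831517-149832888, was 1372 bp wide and had a CDK9 pileup of 88 fragments in DMSO and 77 with nucleotides. Its DDX21 pileup was 36 in DMSO, and no DDX21 peak was found there with A771726 or with nucleotides. The next in the stretch, chr1:149822546-149823957, had CDK9 pileups of 71 and 78, and DDX21 was found there only with nucleotides, at 34. At chr1:149811678-149812849 the CDK9 pileups were 66 and 70, and DDX21 was found only with A771726, at 19. So neighbouring wide CDK9 sites of the stretch differed in which lists held a DDX21 peak. At chr1:149824051-149825481, with 60 and 59, DDX21 peaks were present in all 3 lists at 21, 18 and 24. At chr1:149813259-149814370, with 71 and 61, DDX21 was found in DMSO only, at 24. All these DDX21 pileups were low beside the list medians, 62 in DMSO, 46 with A771726 and 63 with nucleotides. Whether the missing DDX21 peaks fell just short of the caller's threshold was not tested.

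The widest region, chr6:26156464-26158095, was 1632 bp long and had the highest fold enrichment of the DMSO list, 15.5, over a background of 2.22 fragments. Its pileup was 49 in DMSO and 40 with nucleotides, the nearest A771726 peak was 76825 bp away, and no DDX21 list had a peak there. Also on chromosome 6, chr6:27858040-27858723 had 34 in DMSO and 19 with nucleotides, and its nucleotides peak was 191 bp wide against 684 bp in DMSO. Both lie on the short arm of chromosome 6, which is known to carry the main cluster of replication-dependent histone genes, as the long arm of chromosome 1 carries a smaller one. Whether the regions lie on such genes was not determined.

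Of the top 20, 11 stood in groups of at least 5 neighbouring CDK9 peaks and the others stood alone or with fewer. The region chr5:141736151-141737185, 1035 bp wide, had a pileup of 53 in DMSO and 42 with nucleotides and no DDX21 peak. The region chr19:13947711-13948144 had 65 and 54 and likewise no DDX21 peak. At chr1:145382693-145383176 CDK9 had 80 and 55, and DDX21 had 75 in DMSO, 35 under A771726 and 39 with nucleotides. CDK9 pileup was lower with nucleotides at 14 of the top 20, these among them, and the top 20 were picked for high values in DMSO.

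A few of the top 20 held or exceeded their DMSO pileup. The region chr7:15543844-15544505 had 39 in DMSO and 48 with nucleotides, and chr13:80915203-80915516 had 46 and 48. At the other end, chr10:121446403-121446739 had 50 and 26. The narrow end of the group held 41 regions of 128 bp, of which chr7:152133824-152133951 ranked highest, with 41 in DMSO and 40 with nucleotides.

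Of the top 20, 10 had no DDX21 peak in any list, 8 had one in the DMSO list, 5 in the A771726 list and 7 in the nucleotides list. Among all 346 peaks of the highest CDK9 decile, 29.2% were on a DDX21 peak in DMSO, 18.5% with A771726 and 24.3% with nucleotides, and among all CDK9 DMSO peaks 17.8%, 10.8% and 15.7%. Among the top 20, chr10:95462170-95462480 had the most DDX21 in DMSO. CDK9 had 51 and 52 there, and DDX21 had 205 in DMSO, 106 under A771726 and 185 with nucleotides. For comparison, the strongest unmatched peak, chr1:228768364-228768522, had a CDK9 pileup of 68 over a background of 15.2 and no DDX21 peak. Of the 5 strongest unmatched peaks, chr5:58423509-58423807 also had none. The other 3 had DDX21 in each list, with pileups of 143, 65 and 138 at chr14:105282356-105282535, 138, 72 and 139 at chr11:77790857-77791044, and 156, 78 and 155 at chr9:108006592-108006862.

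CDK9 peaks of DMSO often stood in runs, here 5 or more peaks with gaps of at most 10 kb, and 16.4% of all DMSO peaks were in one. Of the 1397 regions, 295 were in runs, or 21.1% (19.0 to 23.4), against 10.2% (8.84 to 11.6) of unmatched and 43.9% (36.6 to 51.3) of kept peaks. The regions were thus in runs more often than unmatched peaks and less often than kept ones, with intervals that do not overlap. Peaks enter a run together, with the 295 regions in 61 runs, so they are not independent draws and these intervals are too narrow. Neighbouring DMSO peaks on a shared nucleotides peak also became regions together. Weighting unmatched peaks to the regions' distribution over deciles left their share at 10.2%. The regions had the higher share in 10 of 10 deciles, with intervals apart in 3. In the highest decile it was 31.6% (25.5 to 38.3) against 14.3% (4.03 to 32.7).

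There were 62 runs, and 61 held at least 1 region of the group. In 30 of these no A771726 peak was found, and they held 140 regions, while 31 did have an A771726 peak. At least 5 regions stood in 28 runs. Only 1 run consisted of regions of the group alone, so in nearly all runs they stood beside kept or unmatched peaks. Of all 1397 regions, 573, or 41.0% (38.4 to 43.6), had no other CDK9 DMSO peak within 10 kb. The share was 66.4% (64.2 to 68.5) at unmatched peaks, 22.5% (16.7 to 29.1) at kept peaks and 53.8% at all CDK9 DMSO peaks.

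The run with the most regions, chr11:122011349-122073949, had 30 DMSO peaks, of which 12 were regions, 2 kept and 16 unmatched, with 3 A771726 and 24 nucleotides peaks. The run chrX:45607254-45634727 had 10 regions among 16 peaks, with 1 A771726 peak and 22 nucleotides peaks. The run chr16:22018627-22038869 had 9 among 19, with 1 and 11. These runs had no DDX21 peak in any list.

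The run chr11:65264806-65275434 differed, with 9 regions, 6 kept peaks and 1 unmatched peak, 8 A771726 peaks and 1 DDX21 peak in each list. The run chr13:80910557-80915516 had 9 regions and 2 unmatched peaks within 4.96 kb, with no A771726 peak, 5 nucleotides peaks and no DDX21 peak. So a run could keep several A771726 peaks or none. Over all runs with a region of the group, 44 of 61 had no DDX21 peak in any list. As 61 of the 62 runs held a region, this describes CDK9 runs in general.

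**Figure D4:**
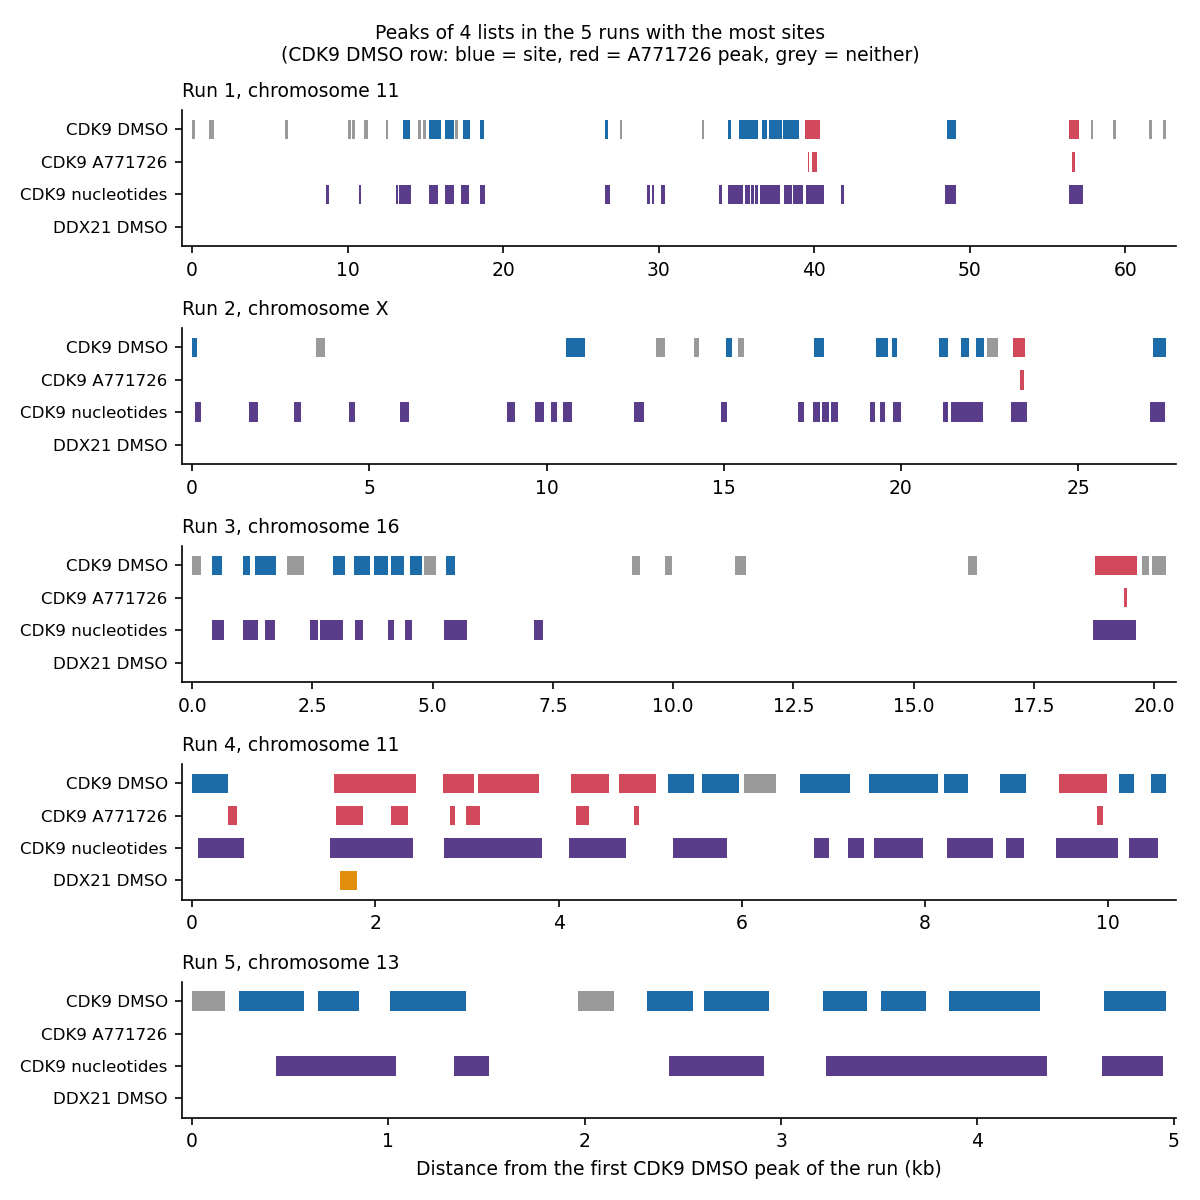
Positions of peaks (bars) in the 5 runs with the most regions of the group, by distance from the first CDK9 DMSO peak (x axis, kb), for the 3 CDK9 lists and the DDX21 DMSO list; in the top row blue marks regions of the group, red kept and grey unmatched peaks. The fourth run has 8 A771726 peaks and the fifth has 0.

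In windows of 1 Mb the regions were spread over 599 windows, of which 334 held a single one and 63 held at least 5. The fullest window, chr6:26000001-27000000, had 26 regions among 36 DMSO peaks, with 2 A771726 and 42 nucleotides peaks. The adjoining window had 16 among 28, with 0 and 25. The window chr12:24000001-25000000 had 24 among 45 and chr1:42000001-43000000 had 14 among 15. The last held almost nothing but regions of the group, though with only 15 peaks.

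By chromosome, the regions were between 31.8% (25.3 to 38.8) of the DMSO peaks on chromosome 3 and 48.4% (40.9 to 55.9) on chromosome 7, among chromosomes with at least 100 peaks. Chromosome 1 held the most, 177. The intervals contain the overall 40.4% except on chromosomes 3, 7 and 17. Chromosome 7 had 88 regions and no kept peak among 182 DMSO peaks.

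DDX21 was not used to choose the regions. A DDX21 DMSO peak was found at 211 of 1397, or 15.1% (13.3 to 17.1), where all CDK9 DMSO peaks gave 17.8%, unmatched peaks 19.4% (17.7 to 21.3) and kept peaks 21.4% (15.7 to 28.0). With A771726 the shares were 8.59% (7.17 to 10.2) at the regions and 10.8% at all CDK9 DMSO peaks, and with nucleotides 13.0% (11.2 to 14.8) and 15.7%. The regions were near these background shares in each list and below them. Most of the regions, 1175, had no DDX21 peak in any list.

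The regions were also set beside unmatched peaks of like −log10 q. Unmatched peaks weighted to the regions' deciles gave 27.2% on a DDX21 DMSO peak, a value with no interval. The share was lower at the regions in 9 of 10 deciles, but the intervals were apart in only 2, and the difference over all deciles was not tested. In the highest decile it was 23.7% (18.2 to 30.0), or 51 of 215, against 53.6% (33.9 to 72.5), or 15 of 28. Weighted in the same way, kept peaks gave 9.46%, below the regions, although the lower deciles held few kept peaks. The highest decile held 103 of the 187 kept peaks. There 34.0% (24.9 to 44.0) of them were on a DDX21 DMSO peak, above the regions, with overlapping intervals. For the DDX21 A771726 list the weighted share of kept peaks was 12.9%, above the 8.59% of the regions. So the order of kept peaks and regions was not settled.

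Runs and DDX21 seldom went together. In runs, 15 of 295 regions, or 5.08% (2.87 to 8.25), were on a DDX21 DMSO peak, against 196 of 1102, or 17.8% (15.6 to 20.2), outside runs. Unmatched peaks showed the same, with 4.19% (1.83 to 8.09) in runs and 21.2% (19.2 to 23.2) outside. Outside runs the intervals of regions and unmatched peaks overlap when no weighting by decile is made.

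**Figure D5:**
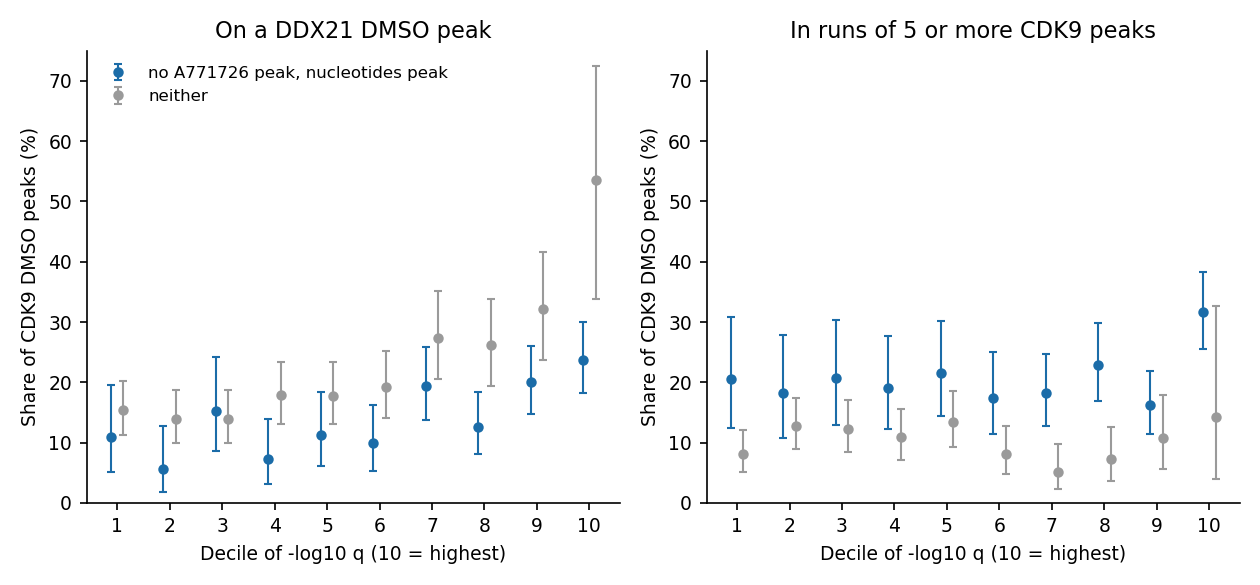
Share (y axis, %) of CDK9 DMSO peaks on a DDX21 DMSO peak (left) and in runs (right) by decile of −log10 q (x axis, 10 = highest), for the regions of the group and for unmatched peaks; bars are exact 95% intervals. The regions' points lie lower on the left in 9 of 10 deciles and higher on the right in 10 of 10.

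The regions with and without DDX21 differed little in shape. Their median width was 224 bp (203 to 240) on DDX21 DMSO peaks and 231 bp (224 to 239) off them, and median fold enrichment was 4.61 and 4.63. Pileup was higher on DDX21, at 30 (29 to 33) against 25 (24 to 26), and so was local background, at 5.86 (5.50 to 6.24) against 4.35 (4.16 to 4.70). Unmatched peaks also had a higher background on DDX21, 4.85 against 3.55, and the part of background in the overlap was not tested. The log2 ratio of CDK9 height with nucleotides to DMSO was -0.09 (-0.09 to -0.03) on DDX21 and 0.03 (0.0030 to 0.05) off it, small beside the quartiles of all regions, -0.20 and 0.22.

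DDX21 peaks at the regions were present or missing with A771726 at shares close to those of all DDX21 peaks. The 211 regions lay on 209 DDX21 DMSO peaks. Of these, 119, or 56.9% (49.9 to 63.7), also had a DDX21 A771726 peak, against 51.1% of all DDX21 DMSO peaks. A nucleotides peak was present at 171, or 81.8% (75.9 to 86.8), against 86.3% of all. Weighting all DDX21 peaks to the same deciles of DDX21 −log10 q gave 53.4% and 84.9%, inside both intervals. When only the 4375 top peaks of each DDX21 list were used, 93.2% (87.0 to 97.0) of 117 regions on DDX21 had an A771726 peak, against 88.5% (87.5 to 89.4) of all top DDX21 DMSO peaks. With nucleotides the same choice gave 92.3% (85.9 to 96.4) and 93.1% (92.3 to 93.8). The shares themselves thus depended on how many DDX21 peaks were listed, while the regions' intervals contained the value of the top DDX21 peaks.

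By pattern, 117 regions had DDX21 in all 3 lists, 54 in DMSO and with nucleotides only, 38 in DMSO only and 10 with nucleotides only. The 54 share the absence and presence that chose the CDK9 regions, and are 3.87% of them. The same DDX21 pattern was found at 102 of the 1878 unmatched and 0 of the 187 kept peaks, so it was not particular to the regions. Of the 90 DDX21 DMSO peaks on regions that lacked an A771726 peak, 54 had a nucleotides peak (interval 49.1 to 70.2%), where all such DDX21 peaks gave 72.2%, or 65.9% weighted to the same deciles.

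DDX21 height at the regions was lower with A771726 and near its DMSO value with nucleotides, as it was at DDX21 sites without CDK9. At the 117 with DDX21 in all 3 lists, median pileups were 137 in DMSO, 55 under A771726 and 125 with nucleotides. The log2 ratio of height with A771726 to DMSO was -1.16 (-1.28 to -1.04) and was below 0 at all 117. At 3870 DDX21 sites with no CDK9 DMSO peak it was -1.26 (-1.28 to -1.25) and was below 0 at 3830. With nucleotides the ratios were 0.06 (0.02 to 0.12) and 0.08 (0.08 to 0.09). The regions' interval for A771726 contains the value of sites without CDK9.

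The 5 regions on the strongest DDX21 DMSO peaks had CDK9 pileups of 21 to 36 in DMSO. All regions had a median of 26 there, with quartiles of 21 and 32. At chr19:47354200-47354401 CDK9 had 21 in DMSO and 24 with nucleotides, and DDX21 had 256 in DMSO, 223 under A771726 and 262 with nucleotides. At chr16:2205173-2205405 the values were 36 and 32 for CDK9 and 250, 182 and 257 for DDX21. At chr7:102105224-102105433 they were 24 and 23, and 211, 98 and 207. All 3 sites had a strong DDX21 peak in the A771726 list and, by the rule, no CDK9 peak with A771726. On the scale used above, 836 of the 1397 regions lay under the lowest −log10 p of the CDK9 A771726 list. Whether a CDK9 peak could have been called at these 3 sites was not tested. The last 2 had 28 and 31 with 234, 132 and 232 (chr8:56987009-56987189), and 32 and 32 with 252, 163 and 256 (chr1:1310583-1310715). In 5 of the 6 lists no pileup exceeded 2 times the length of the shortest peak and the top one equalled it, so pileups near 256 in DMSO, 232 with A771726 and 262 with nucleotides stand at the top of what the DDX21 lists held, and the size of a difference cannot be read at such sites.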

How the data were processed

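Peaks of 6 libraries, CDK9 and DDX21 in 3 treatments, were used; the 3 inputs were not used here. Bowtie, MACS2 2.0 and hg19 are named in the submitters' processing notes; which parameters and control were used was not given in the sources used here. Read totals are unknown, and with them depth. The deposited lists give, per peak, a score, a fold enrichment (ratio), and −log10 p and −log10 q, as the authors' caller wrote them; peaks were called per library. Fold enrichment was compared only within a list.

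Pileup and background were worked out from fold = (pileup + 1) / (background + 1) and a Poisson upper tail; pileups were whole within 0.001 at 100% of peaks in each list. Overlap meant at least 1 bp. Named regions were the 20 highest by −log10 q, the 5 runs with most regions, the 5 on the highest DDX21 peaks, the highest unmatched peaks, those nearest the overlap limit, and the widest and narrowest, without mitochondrial or unplaced ones. Other windows and runs were named after their values were seen. Regions and lists were chosen with earlier results of these data known. Heights, 1 Mb windows, weighting to deciles, scaling to the A771726 library and the alternatives on background and on that scale were added after seeing the data. A planned assignment to genes was not made, since it needs hg19 annotation. Steps were tested on simulated peaks. Python 3.11.15, numpy 2.4.6, pandas 2.3.3, SciPy 1.17.1 and matplotlib 3.10.9 were used.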

Additional observations from a re-analysis of the deposited data

How the results depend on the processing

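Of 66 alternatives over 10 results, 36 stayed within the counting interval (or 1.5 times, for a count) and 30 moved outside it. No paired analysis was possible because each group has 1 library. The number of regions became 759 with −log10 q of at least 5 in both lists, 71 with the 290 top peaks of each CDK9 list, and 561 with DMSO peaks that reach the A771726 threshold when scaled. Their share of DMSO peaks without an A771726 peak became 38.9% when 50% of the shorter peak had to overlap, 36.2% with the top peaks and 67.8% with the scaled choice. Median width became 222.5 bp without regions in runs and 285 bp with the scaled choice, which also gave a median fold enrichment of 5.81. The share in runs was 15.0% with gaps of 5 kb, 27.4% with 20 kb, 38.9% for runs of at least 3 peaks and 23.9% with the scaled choice; unmatched peaks gave 7.24%, 14.0% and 20.3% for the first 3. The share on a DDX21 DMSO peak was 8.38% with the top 4375 DDX21 peaks of each list, 17.5% within 1 kb and 19.96% with the scaled choice, against 12.7%, 22.5% and 32.0% for unmatched peaks. With the top DDX21 peaks, 93.2% of regions on DDX21 had it with A771726 and 92.3% with nucleotides. With the lowest −log10 p of the DMSO list as the scaled limit, the regions' median fold enrichment was 5.25 and width 253 bp, their share of peaks without an A771726 peak 56.4% and on DDX21 17.3%; unmatched peaks gave 24.6% on DDX21 and 8.02% in runs. Stricter lists hold fewer peaks by construction; other causes were not tested.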
